A study of Mus musculus with 24 samples.

Results

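The genes described here are 10 core components and readouts of the circadian clock, taken by name from the deposited gene table: *Clock*, *Arntl*, *Per1*, *Per2*, *Per3*, *Cry1*, *Cry2*, *Nr1d1*, *Nr1d2* and *Dbp*. They are 10 of 55487 genes in the table, and all 10 passed the filter on low counts, as did 15401 genes in all. The rule that chose them used no measured value, although earlier results of these data were known.

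mRNA was sequenced from mouse embryonic fibroblasts (MEFs) that were wild type (WT) or carried a double knockout of *Tfeb* and *Tfe3* (DKO). TFEB and TFE3 are transcription factors that switch on genes for lysosomes and autophagy. Cells of both genotypes received the vehicle DMSO, torin1, which inhibits the kinase MTOR at its catalytic site, or MK-8722, a direct activator of the energy-sensing kinase AMPK. With 4 libraries for every pairing of genotype with treatment, there were 6 groups and 24 libraries. The labels give neither the dose nor the length of treatment, nor the hour at which cells were seeded or harvested. Both genotypes came as established MEF cultures from another laboratory, and nothing in the labels says that a genotype was represented by more than a single culture line. Every library of a group came from a different passage, which was 7, 8, 9 or 11 in WT and 8, 9, 10 or 11 in DKO, and each passage of a genotype gave 1 library of each treatment. A passage of a genotype and the day on which its cells were grown cannot be told apart.

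Library totals lay between 24668870 and 33332507 estimated counts. RNA integrity numbers were 9.7 to 9.9, except for 7.9 in DKO MK-8722 replicate 3, of passage 10. *Tfeb* was at 22.9 ± 1.74 CPM (counts scaled to the size of the library) in WT and 2.25 ± 0.289 in DKO under DMSO (SD, n = 4), whereas *Tfe3* mRNA was at 120.2 ± 1.17 and 123.6 ± 2.11, so the mRNA level of *Tfe3* does not separate the genotypes. Of 11 fibroblast markers, 9 were above 1 CPM in every WT library and 8 in every DKO library. *Lum* was at 0 in the DMSO groups of both genotypes, *Dcn* was at most at 0.411 CPM there, and *Thy1* was at 0 under DMSO in DKO. The endothelial markers summed to at most 1.31 CPM in any library, and of the 4 leukocyte markers *Ptprc* and *Adgre1* lay at or near 0 under DMSO. Other markers moved with treatment. The leukocyte marker *Cd68* had means of 1.90, 5.30 and 11.8 CPM in WT and 4.66, 6.46 and 8.92 CPM in DKO under DMSO, torin1 and MK-8722. The epithelial marker *Krt8* had means of 2.19, 4.17 and 2.77 CPM in WT and 3.85, 10.99 and 7.77 CPM in DKO. The 3 neural markers summed to 28.6 to 59.0 CPM over all libraries, with *Tubb3* at up to 37.1 CPM and *Map2* at up to 29.6 CPM. The part of such cells or of these genes in the results below was not tested. The 3 WT libraries of passage 11 stood apart in interferon-stimulated genes, which were chosen after their values were seen. *Irf7* was at 218.7 to 314 CPM in them, against 6.05 to 51.0 CPM in the other 9 WT libraries and 214 to 408 CPM in the 12 DKO libraries. In bulk RNA, fewer cells of a kind and less RNA per cell cannot be told apart. Without those 3 libraries the numbers of clock genes called below changed by at most 1 in any comparison.

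The circadian clock is a loop of transcription and translation that runs in most mammalian cells, fibroblasts included. CLOCK and ARNTL (also called BMAL1) pair up and bind E-box sequences in the promoters of the Per and Cry genes, whose proteins accumulate, return to the nucleus and repress that pair. Another loop is closed by the nuclear receptors NR1D1 and NR1D2 (REV-ERBα and REV-ERBβ), which are E-box targets and repress *Arntl*, while ROR receptors compete for the same sites and activate it. *Dbp*, another E-box target, encodes a factor that binds D-boxes and carries the rhythm to output genes. In a population of cultured cells the loops drift out of phase unless something such as a serum or hormone pulse resets them. A single harvest records each mRNA at only 1 time, as an average over the cells.

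In the GRCm38 annotation, *Clock* spans chr5:76209868-76304792 on the minus strand, *Arntl* chr7:113207465-113314126 on the plus strand, and *Dbp* chr7:45705088-45710203 on the plus strand. *Per1* spans chr11:69095217-69109960 on the plus strand, *Per2* chr1:91415982-91459324 on the minus strand, and *Per3* chr4:151003652-151044665 on the minus strand. *Cry1* spans chr10:85131700-85185064, *Cry2* chr2:92403646-92434043, *Nr1d1* chr11:98767932-98775333 and *Nr1d2* chr14:18204054-18239127, all on the minus strand. The whole of *Per3* lies within the annotated span of *Camta1* on the same strand, so unspliced *Camta1* reads over its exons could not be told from its own. The 3′ end of *Nr1d1* overlaps *Thra* by 1075 bases and *Dbp* overlaps *Sphk2* by 737 bases, both on the opposite strand. Also on the opposite strand, *Cry2* overlaps *D930015M05Rik* by 23417 bases and *Arntl* overlaps *Gm45355* by 2394 bases. On the same strand, *Clock* overlaps *Gm43658* by 4176 bases and the pseudogene *Ube2n-ps1* by 459 bases. The labels call the libraries strand-specific. The strand setting used in counting is not given in the sources used here.

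Promoters are shown because the members are wired to each other through short DNA sites in them. The RefSeq promoter table (GRCm38.p6) held 13 windows for 9 of the members, with *Per2* not among them, and the 250 bases before each start were searched on both strands. Searched were the E-box CACGTG, its variant CACGTT, the D-box TTANGTAA, the core AGGTCA that NR1D and ROR receptors bind, the cAMP response element TGACGTCA and the CLEAR core TCACGTGA bound by TFEB and TFE3, which overlaps the E-box in its 6 central letters. At least 1 match was found in 7 of the 13 windows. Each window below is written 5′ to 3′ on the strand of its gene, ends at the base before the start, and has the matches in capitals.
Per1, chr11:69098699-69098948, plus strand: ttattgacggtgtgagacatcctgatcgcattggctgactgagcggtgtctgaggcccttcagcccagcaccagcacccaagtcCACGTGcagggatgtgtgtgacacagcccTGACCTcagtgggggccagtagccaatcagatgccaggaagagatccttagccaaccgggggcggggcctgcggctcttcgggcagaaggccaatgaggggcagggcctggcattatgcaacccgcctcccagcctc
Cry1, chr10:85185055-85185304, minus strand: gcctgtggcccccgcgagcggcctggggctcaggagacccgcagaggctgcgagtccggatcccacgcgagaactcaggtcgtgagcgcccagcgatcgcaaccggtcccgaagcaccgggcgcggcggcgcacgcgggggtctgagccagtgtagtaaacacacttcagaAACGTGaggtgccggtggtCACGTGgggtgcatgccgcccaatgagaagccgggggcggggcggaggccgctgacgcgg
Per3, chr4:151044666-151044915, minus strand: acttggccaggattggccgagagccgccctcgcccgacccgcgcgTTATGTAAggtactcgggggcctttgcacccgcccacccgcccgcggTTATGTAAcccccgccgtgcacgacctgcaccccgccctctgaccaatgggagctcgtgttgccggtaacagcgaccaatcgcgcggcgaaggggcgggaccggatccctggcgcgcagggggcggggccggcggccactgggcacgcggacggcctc
Nr1d1, chr11:98775378-98775627, minus strand: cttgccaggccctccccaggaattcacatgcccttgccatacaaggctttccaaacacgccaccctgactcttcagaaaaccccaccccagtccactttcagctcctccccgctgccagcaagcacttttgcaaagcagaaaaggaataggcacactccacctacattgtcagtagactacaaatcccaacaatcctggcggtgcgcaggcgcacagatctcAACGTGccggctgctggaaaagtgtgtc
Nr1d2, chr14:18239107-18239356, minus strand: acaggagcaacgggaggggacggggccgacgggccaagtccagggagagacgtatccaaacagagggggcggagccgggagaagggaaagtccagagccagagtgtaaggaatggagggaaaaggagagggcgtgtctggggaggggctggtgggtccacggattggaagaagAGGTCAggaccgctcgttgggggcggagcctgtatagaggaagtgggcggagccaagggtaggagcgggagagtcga
The E-box began 166 bases before the start in *Per1* and 60 bases before it in *Cry1*. It was found in 2 of the members' windows and in 6.02% of all 32851 windows of the table. The variant CACGTT was read on the other strand 79 bases before the start of *Cry1*, 28 before that of *Nr1d1* and 166 before that of *Cry2*, and 3.85% of all windows held it. *Per3* held 2 D-boxes, 205 and 158 bases before its start, where 2.06% of all windows held any. The core AGGTCA lay 77 bases before the start of *Nr1d2*, was read on the other strand 137 bases before that of *Per1* and 119 bases before a start of *Clock*, and occurred in 14% of all windows. The cAMP response element and the CLEAR core, found in 1.55% and 0.785% of all windows, were in none of the 13. A match describes letters in a window and is not evidence of binding, and a window without a match says only that these letters are not in these 250 bases.

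All 10 members were detected in every library. Levels per length are given as TPM, which scales counts to transcript length and library size and is the only scale on which genes are compared with each other. Under DMSO in WT, the order of the mean TPM was *Nr1d2*, *Per1*, *Cry1*, *Arntl*, *Clock*, *Cry2*, *Nr1d1*, *Dbp*, *Per2* and *Per3*. The means ran from 18.01 ± 0.901 TPM for *Nr1d2* to 3.46 ± 0.548 TPM for *Per3* (SD, n = 4). Neighbours from *Cry1* down to *Nr1d1* overlapped in range, as did *Nr1d2* with *Per1* and *Per2* with *Per3*, whereas *Nr1d1* stood clear of *Dbp* and *Dbp* of *Per2*. *Nr1d2* led the order in all 6 groups and reached 45.8 ± 7.28 TPM in DKO under torin1, where *Per2* was lowest at 0.885 ± 0.113 TPM.

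**Figure D1:**
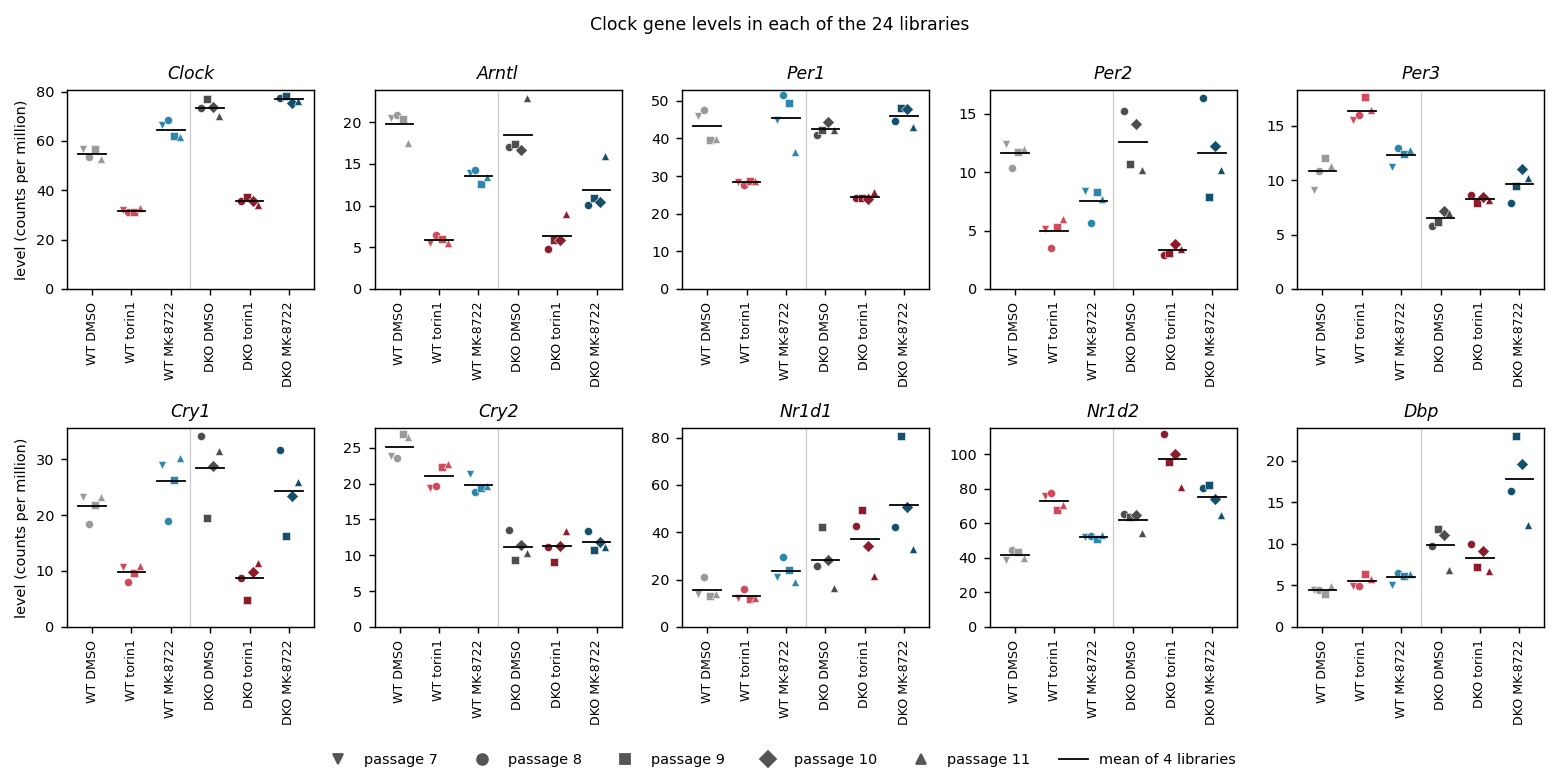
Level of each clock gene in CPM (linear axis from 0) in each of the 24 libraries, with 4 libraries per group; marker shapes give the passage and black lines the group mean. *Clock*, *Arntl*, *Per1*, *Per2* and *Cry1* sat lowest under torin1 in both genotypes, *Cry2* and *Per3* lay lower in DKO under every treatment, and *Nr1d1* spread widely between the passages of DKO.

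The first question was how the clock genes responded to inhibition of MTOR. With torin1, 7 of 10 members were called in WT and 7 in DKO, and in each genotype *Arntl*, *Clock*, *Per1*, *Per2* and *Cry1* fell while *Per3* and *Nr1d2* rose. A gene was called when its adjusted p was under 0.05 and it changed at least 1.2-fold. Adjusted p are Benjamini-Hochberg values over 15401 genes, from the quasi-likelihood test of edgeR. Torin1 changed a large part of all genes, 47.1% in WT and 43.2% in DKO, with 26.6% higher and 20.5% lower in WT and 23% higher and 20.2% lower in DKO. Against that background 2 members were called higher and 5 lower in each genotype. The ranges of torin1 and DMSO libraries did not overlap for 9 members in WT and 7 in DKO. That held for 54.1% and 52.8% of all genes. The members' median log2 fold change was −0.43 in WT and −0.52 in DKO, and that of all genes was 0.05 and 0.02.

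*Arntl*, the partner that makes the activating pair rhythmic, fell most among the members in WT. In order of passage (7, 8, 9 and 11), its level in WT was 20.6, 20.8, 20.4 and 17.6 CPM under DMSO and 5.55, 6.48, 5.97 and 5.48 CPM under torin1. In DKO (passages 8, 9, 10 and 11) it was 17.1, 17.4, 16.7 and 22.96 CPM under DMSO and 4.82, 5.90, 5.89 and 9.04 CPM under torin1. No torin1 library reached any DMSO library in either genotype, and passage 11 was the highest of DKO in both treatments. The log2 fold change was −1.76 ± 0.16 in WT (± SE, adjusted p = 1.7e-09) and −1.53 ± 0.16 in DKO (adjusted p = 1.7e-08).

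*Clock*, the other partner of the activating pair, also fell. In WT it went from 56.6, 53.6, 56.5 and 52.6 CPM under DMSO to 32.2, 31.0, 31.0 and 32.8 CPM under torin1. In DKO it went from 73.2, 76.8, 73.8 and 70.1 CPM to 35.8, 37.1, 35.5 and 34.0 CPM. These groups were far apart with little spread. The log2 fold change was −0.79 ± 0.04 in WT (adjusted p = 1.8e-13) and −1.05 ± 0.04 in DKO (adjusted p = 3.9e-15). The ratio of *Clock* to *Arntl* by TPM within a library was 0.974 ± 0.0580 under DMSO and 1.98 ± 0.192 under torin1 in WT (SD, n = 4). In DKO it was 1.45 ± 0.256 and 2.14 ± 0.572, with overlapping ranges.

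Among the repressors, *Per2* and *Cry1* fell more than *Per1*. *Per2* in WT was at 12.4, 10.4, 11.7 and 11.96 CPM under DMSO and at 5.14, 3.51, 5.31 and 6.01 CPM under torin1. In DKO it was at 15.2, 10.7, 14.1 and 10.2 CPM under DMSO and at 2.93, 3.06, 3.88 and 3.38 CPM under torin1. Neither pair of groups overlapped, and the log2 fold change was −1.22 ± 0.19 in WT (adjusted p = 8.0e-06) and −1.92 ± 0.20 in DKO (adjusted p = 2.6e-08). *Per2* had the fewest reads of the members under torin1, with 82 to 108 estimated counts per DKO library.

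*Cry1*, whose protein is a strong repressor of the activating pair, was at 23.2, 18.4, 21.9 and 23.2 CPM under DMSO in WT and at 10.7, 8.09, 9.66 and 10.8 CPM under torin1. In DKO it was at 34.1, 19.5, 28.8 and 31.4 CPM under DMSO and at 8.83, 4.85, 9.88 and 11.5 CPM under torin1. Within each group the lowest library was the same passage, 8 in WT and 9 in DKO, and no torin1 library overlapped with DMSO. The log2 fold change was −1.14 ± 0.22 in WT (adjusted p = 8.6e-05) and −1.70 ± 0.22 in DKO (adjusted p = 6.7e-07). *Per1*, which answers quickly to external signals as well as to the clock, went from a mean of 43.2 ± 4.16 CPM to 28.3 ± 0.552 CPM in WT (SD, n = 4), a log2 fold change of −0.61 ± 0.08 (adjusted p = 4.5e-07). In DKO it went from 42.4 ± 1.42 CPM to 24.5 ± 0.824 CPM, a log2 fold change of −0.79 ± 0.08 (adjusted p = 1.1e-08).

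*Per3* and *Nr1d2* moved the other way. *Per3*, the least essential of the Per genes for rhythm, was at 9.07, 10.9, 12.1 and 11.3 CPM under DMSO in WT and at 15.5, 15.97, 17.7 and 16.4 CPM under torin1, a log2 fold change of 0.60 ± 0.09 (adjusted p = 6.4e-06). In DKO it was at 5.76, 6.18, 7.14 and 6.96 CPM and at 8.68, 7.88, 8.48 and 8.20 CPM, a log2 fold change of 0.35 ± 0.10 (adjusted p = 0.0045). Every torin1 library was above every DMSO library of its genotype. *Nr1d2*, a repressor of *Arntl*, rose from 38.6, 44.5, 43.4 and 40.1 CPM to 76.0, 77.5, 67.9 and 70.4 CPM in WT (log2 fold change 0.81 ± 0.08, adjusted p = 1.9e-08). In DKO it rose from 65.6, 63.8, 65.0 and 54.3 CPM to 111, 95.3, 100.03 and 81.0 CPM (log2 fold change 0.64 ± 0.08, adjusted p = 6.1e-07). As with *Per3*, the groups did not overlap.

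*Nr1d1*, *Dbp* and *Cry2* were not called with torin1. *Nr1d1* was at a mean of 15.5 ± 3.68 CPM under DMSO and 13.1 ± 1.98 CPM under torin1 in WT (log2 fold change −0.24 ± 0.29), and at 28.2 ± 10.5 and 37.0 ± 12.1 CPM in DKO (0.39 ± 0.27). With passage as a block within each genotype, the log2 fold change of *Nr1d1* in DKO was 0.40 ± 0.09 and was called (adjusted p = 0.00036), and that of *Dbp* in WT was 0.31 ± 0.13 and was called (adjusted p = 0.045). The same block fitted to all genes called 49.7% of them in WT and 45.8% in DKO. *Cry2* in WT lay at a log2 fold change of −0.26 ± 0.10 (adjusted p = 0.031), just under the fold threshold, and at 0.02 ± 0.11 in DKO. The WT fall was called with DESeq2 (−0.27, adjusted p = 0.014) and in 7 of 24 edgeR fits that left out 1 library. It was also called with DESeq2 size factors, with no filter, with an offset for transcript length and with the groups compared alone. Within families, *Per3* was called higher where *Per1* and *Per2* were called lower, and no test compared *Nr1d1* with *Nr1d2* or *Cry1* with *Cry2*. The *Cry1* to *Cry2* ratio by TPM went from 1.12 ± 0.111 to 0.572 ± 0.0851 in WT and from 3.30 ± 0.571 to 0.923 ± 0.198 in DKO (SD, n = 4).

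**Figure D2:**
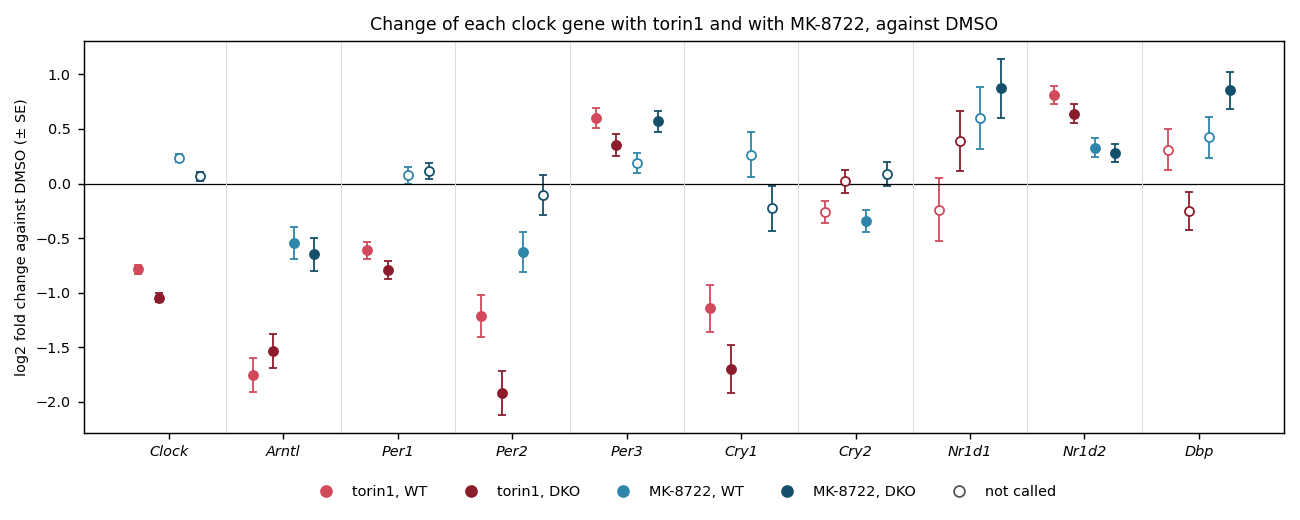
Log2 fold change of each clock gene with torin1 and with MK-8722 against DMSO in WT and DKO cells (4 libraries a group; bars are SE from the edgeR fit; filled points were called). Torin1 lowered *Clock*, *Arntl*, *Per1*, *Per2* and *Cry1* and raised *Per3* and *Nr1d2* in both genotypes, while MK-8722 lowered *Arntl* and raised *Nr1d2* in both.

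The second question was how the same genes responded to activation of AMPK. The DMSO libraries are shared by the comparisons with torin1 and with MK-8722, so the values of these are set side by side and not correlated. MK-8722 gave 4 called members in WT, where 16.1% of all genes were called, and 5 in DKO, where 8.69% were called. In WT 1 member was higher and 3 lower, where 10.3% and 5.87% of all genes were. In DKO 4 were higher and 1 lower, where 5.47% and 3.21% were. The ranges of MK-8722 and DMSO libraries did not overlap for 6 members in WT and 3 in DKO. That held for 29.8% and 21.1% of all genes. *Arntl* fell and *Nr1d2* rose in both genotypes. *Clock*, *Per1* and *Cry1* were not called with MK-8722 in either. The log2 fold change of *Cry1* was 0.26 ± 0.21 in WT (adjusted p = 0.37) and −0.23 ± 0.21 in DKO (adjusted p = 0.49). With passage as a block, *Cry1* stayed under the fold threshold in both genotypes.

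*Arntl* under MK-8722 was at 13.9, 14.3, 12.6 and 13.5 CPM in WT and at 10.0, 11.0, 10.4 and 16.004 CPM in DKO. Both sets lay below all DMSO libraries of their genotype, and again passage 11 was the highest in DKO. The log2 fold change was −0.55 ± 0.15 in WT (adjusted p = 0.0063) and −0.65 ± 0.15 in DKO (adjusted p = 0.0034). Without the 3 WT libraries of passage 9 the WT value was −0.50, with an adjusted p of 0.056. *Nr1d2* under MK-8722 was at 52.2, 52.8, 50.8 and 53.3 CPM in WT, above all DMSO libraries (log2 fold change 0.33 ± 0.08, adjusted p = 0.0042). In DKO it was at 80.5, 82.3, 74.2 and 65.0 CPM, where passage 11 overlapped with DMSO (log2 fold change 0.28 ± 0.08, adjusted p = 0.018). That DKO call was lost when DKO DMSO replicate 1, DKO MK-8722 replicate 1 or DKO MK-8722 replicate 4 was left out, with adjusted p of 0.070, 0.074 and 0.050, and when passage 9 or 10 of DKO was (adjusted p = 0.099 and 0.053).

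In WT, *Per2* and *Cry2* also fell with MK-8722. *Per2* was at 8.41, 5.62, 8.28 and 7.74 CPM, below all DMSO libraries (log2 fold change −0.63 ± 0.19, adjusted p = 0.012). *Cry2* was at 21.3, 18.9, 19.4 and 19.6 CPM, against 23.8, 23.5, 26.8 and 26.4 CPM under DMSO (log2 fold change −0.34 ± 0.10, adjusted p = 0.012). The WT fall of *Cry2* did not pass without passage 9 of WT (−0.30, adjusted p = 0.085). In DKO, *Per2* was at 16.3, 7.86, 12.2 and 10.2 CPM and overlapped with DMSO (log2 fold change −0.11 ± 0.18), and *Cry2* had a log2 fold change of 0.09 ± 0.11. *Clock* in WT was at 66.3, 68.4, 62.0 and 61.7 CPM, every library above DMSO, but its log2 fold change of 0.24 ± 0.04 (adjusted p = 6.4e-05) stayed under the fold threshold.

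In DKO, *Nr1d1*, *Dbp* and *Per3* rose with MK-8722. *Nr1d1*, the other REV-ERB gene and an E-box target, went from 25.95, 42.1, 28.3 and 16.6 CPM under DMSO to 42.2, 80.5, 50.6 and 32.8 CPM. The groups overlapped, yet within each passage the MK-8722 library was the higher. The log2 fold change was 0.87 ± 0.27 (adjusted p = 0.025), and with passage as a block it was 0.87 ± 0.08 (adjusted p = 2.4e-07). Without the block, leaving out any of 4 libraries, DKO DMSO replicates 1, 2 or 3 or DKO MK-8722 replicate 1, raised the adjusted p to 0.056 to 0.15, and leaving out passage 8 or 10 of DKO raised it to 0.060 and 0.10. In WT, *Nr1d1* went from 13.9, 20.9, 12.9 and 14.1 CPM to 20.9, 29.6, 24.2 and 18.99 CPM, which was higher within each passage. That difference was called with passage as a block (0.61 ± 0.10, adjusted p = 2.6e-05; without it 0.60 ± 0.28, adjusted p = 0.11).

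*Dbp*, the D-box activator, went from 9.69, 11.8, 11.1 and 6.85 CPM under DMSO to 16.4, 22.97, 19.6 and 12.2 CPM under MK-8722 in DKO, with no overlap (log2 fold change 0.86 ± 0.17, adjusted p = 0.00097). In WT it went from 4.49, 4.44, 4.02 and 4.94 CPM to 5.06, 6.46, 6.11 and 6.38 CPM. The WT groups did not overlap, and the log2 fold change of 0.42 ± 0.19 (adjusted p = 0.089) was called with passage as a block (0.42 ± 0.13, adjusted p = 0.014). *Per3* in DKO was at 7.86, 9.51, 11.1 and 10.2 CPM under MK-8722, above all DMSO libraries (log2 fold change 0.57 ± 0.10, adjusted p = 0.00031). With the block, 6 members were called in WT, where 18.9% of all genes were, and 5 in DKO, where 11.7% were.

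Compared with each other, torin1 and MK-8722 left 8 members called in WT and 7 in DKO, against 44.9% and 40.4% of all genes. *Clock*, *Arntl*, *Per1*, *Per2* and *Cry1* were lower with torin1 than with MK-8722 in both genotypes, and *Nr1d2* was higher. The largest was *Per2* in DKO, at 3.31 ± 0.423 against 11.7 ± 3.60 CPM (log2 fold change −1.81 ± 0.20, adjusted p = 7.8e-08). *Cry1* differed by −1.41 ± 0.22 in WT (adjusted p = 7.6e-06) and −1.47 ± 0.22 in DKO (adjusted p = 5.8e-06). *Dbp* was lower with torin1 in DKO, at 8.27 ± 1.57 against 17.8 ± 4.58 CPM (−1.11 ± 0.17, adjusted p = 8.0e-06), and in WT its value was −0.11 ± 0.18. Whether this differed between genotypes was not tested. *Nr1d1* was lower with torin1 in WT (−0.84 ± 0.29, adjusted p = 0.014), which did not pass without passage 9 of WT (adjusted p = 0.068). In DKO the passage block added the call (−0.46 ± 0.08, adjusted p = 4.5e-05), which made 8 members where 42.4% of all genes were called. *Per2* in WT, called at −0.59 ± 0.19 (adjusted p = 0.012), was at −0.27 with an offset for transcript length and was then not called (adjusted p = 0.41). It also missed the threshold without WT torin1 replicate 4, without passage 7 of WT (both adjusted p = 0.054) and without passage 9 of WT (adjusted p = 0.056).

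The third question was how DKO cells differed from WT cells. Under each treatment 6 of 10 members were called, where 48.2%, 51.8% and 48.7% of all genes were called under DMSO, torin1 and MK-8722, so the share of members was near that of all genes. The same 5 members were called in the same direction each time. *Nr1d1*, *Nr1d2* and *Dbp* were higher in DKO, and *Cry2* and *Per3* were lower. Ranges of the genotypes did not overlap for 5, 7 and 6 members under DMSO, torin1 and MK-8722. That held for 56.8%, 60.3% and 54.7% of all genes. These comparisons set a culture line of each genotype against the other, and a difference between the lines other than *Tfeb* and *Tfe3* cannot be told apart from the knockout.

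*Cry2*, a repressor of the activating pair like *Cry1*, was at 13.5, 9.34, 11.4 and 10.3 CPM in DKO under DMSO, against 23.8 to 26.8 CPM in WT. No DKO library of any treatment, the highest at 13.5 CPM, reached the lowest WT library of any treatment at 18.9 CPM. The log2 fold change was −1.18 ± 0.11 under DMSO (adjusted p = 1.5e-09), −0.90 ± 0.10 under torin1 (adjusted p = 8.7e-08) and −0.75 ± 0.11 under MK-8722 (adjusted p = 1.6e-06). A leading transcript held 78.5% ± 1.82 of the TPM of *Cry2* in WT and 82.7% ± 6.85 in DKO under DMSO. *Per3* was also lower in DKO without overlap under every treatment. Its log2 fold change was −0.73 ± 0.10 under DMSO (adjusted p = 8.1e-07), −0.98 ± 0.09 under torin1 (adjusted p = 4.2e-09) and −0.35 ± 0.09 under MK-8722 (adjusted p = 0.0025).

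*Dbp* stood higher in every DKO library than in any WT library of the same treatment. Its mean under DMSO was 9.86 ± 2.18 CPM in DKO and 4.47 ± 0.376 CPM in WT (SD, n = 4), a log2 fold change of 1.13 ± 0.18 (adjusted p = 9.6e-06). The difference was 0.57 ± 0.18 under torin1 (adjusted p = 0.0073) and 1.57 ± 0.18 under MK-8722 (adjusted p = 5.3e-08). *Nr1d1* was higher in DKO by 0.87 ± 0.28 on the log2 scale under DMSO (adjusted p = 0.010), where the groups overlapped, by 1.502 ± 0.28 under torin1 (adjusted p = 7.0e-05) and by 1.14 ± 0.27 under MK-8722 (adjusted p = 0.00098). Without DKO DMSO replicate 4, the library of passage 9, the DMSO difference was 0.61 and not called (adjusted p = 0.070). *Nr1d2* was higher in DKO by 0.58 ± 0.08 under DMSO (adjusted p = 2.4e-06), 0.41 ± 0.08 under torin1 and 0.53 ± 0.08 under MK-8722, with no overlap under any treatment.

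The other 5 members were not called in the same direction under every treatment. *Clock* was higher in DKO under DMSO, with no overlap (0.42 ± 0.04, adjusted p = 2.5e-09), and its differences of 0.16 ± 0.04 under torin1 and 0.25 ± 0.04 under MK-8722 stayed under the fold threshold. *Arntl* and *Per1* were called under no treatment, with log2 fold changes from −0.20 to 0.13 and from −0.21 to 0.01. *Per2* was lower in DKO under torin1 (−0.59 ± 0.21, adjusted p = 0.016) and higher under MK-8722 (0.63 ± 0.19, adjusted p = 0.0054), and in both cases the groups overlapped. The torin1 difference of *Per2* was not called without WT torin1 replicate 1 (adjusted p = 0.068), without DKO torin1 replicate 4 (adjusted p = 0.050), or without the WT libraries of passage 11 (adjusted p = 0.084). *Cry1* was not called under any treatment, and under DMSO it was called with the passage block (0.37 ± 0.07, adjusted p = 0.00015; without it 0.39 ± 0.21, adjusted p = 0.11). With the block, 7 members were called under DMSO, where 49.8% of all genes were. That block takes the spread between passages out of the error, which a comparison of genotypes, whose passages are different cultures, would otherwise hold.

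**Figure D3:**
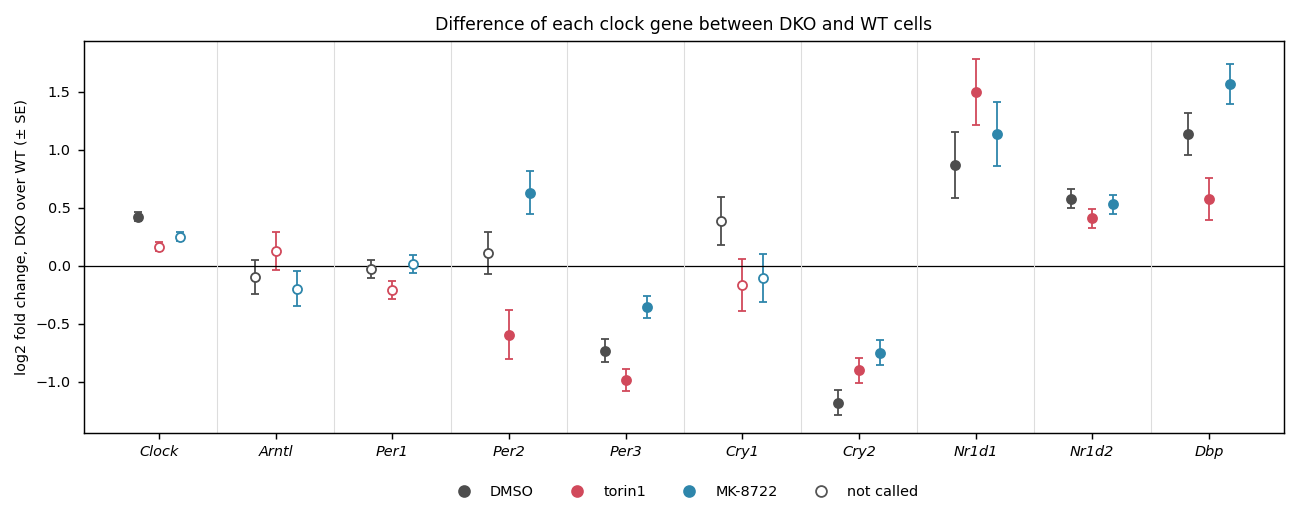
Log2 fold change of each clock gene in DKO over WT cells under DMSO, torin1 and MK-8722 (4 libraries a group; bars are SE from the edgeR fit; filled points were called). *Nr1d1*, *Nr1d2* and *Dbp* lay above 0 and *Cry2* and *Per3* below 0 under all 3 treatments, and *Per2* changed sign between torin1 and MK-8722.

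The fourth question was whether the responses themselves differed between genotypes. Without a block, edgeR's quasi-likelihood test called 0 of 10 members for torin1 and 0 for MK-8722, where 11% and 5.49% of all genes were called. At an unadjusted p under 0.05, 3 members passed for each drug, and DESeq2 called 0 and 1. The nearest was *Clock*, whose fall with torin1 was larger in DKO by 0.26 ± 0.06 on the log2 scale (−0.26 in DKO minus WT, adjusted p = 0.0027), just under the fold threshold.

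With passage as a block, 4 members were called for torin1, where 15.4% of all genes were, and 4 for MK-8722, where 9.04% were. The fall with torin1 was larger in DKO for *Per2* (difference of log2 fold changes −0.69 ± 0.18, adjusted p = 0.0056) and for *Cry1* (−0.56 ± 0.12, adjusted p = 0.0014). *Nr1d1* and *Dbp* went in opposite directions with torin1, at 0.64 ± 0.13 (adjusted p = 0.0012) and −0.55 ± 0.18 (adjusted p = 0.025). With MK-8722 the difference was 0.51 ± 0.15 for *Per2* (adjusted p = 0.026), 0.38 ± 0.11 for *Per3* (adjusted p = 0.018), 0.44 ± 0.11 for *Cry2* (adjusted p = 0.0081) and −0.49 ± 0.10 for *Cry1* (adjusted p = 0.0022). *Clock* passed the adjusted p for both drugs with the block, at −0.26 ± 0.05 (adjusted p = 0.00091) for torin1 and −0.17 ± 0.05 (adjusted p = 0.022) for MK-8722, and stayed under the fold threshold. The sizes of all 8 were close to those without the block, and the standard errors were smaller.

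In the fit with passage terms, 7 of 10 members differed between the DKO passages, where 18.7% of all genes did at an adjusted p under 0.05. Between the WT passages 2 of 10 differed, where 21.5% of all genes did, so the share of members in WT was near that of all genes. Every treatment of a passage was compared with the same treatment in other passages, so the pattern below is that of 3 libraries at a time. Deviations are log2 CPM minus the group's mean. Each adjusted p given with them is from the test across all passages of that genotype, and no single passage was tested.

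*Nr1d1* had the widest swing. In DKO its deviation was 0.62 at passage 9 (0.49 to 0.72 over the 3 treatments), −0.66 at passage 11 (−0.71 to −0.57), and near 0 at passages 8 and 10, a 2.42-fold range (adjusted p = 3.4e-07). In WT it was 0.37 at passage 8 (0.31 to 0.46) and below 0 on average at the other passages, a 1.45-fold range (adjusted p = 0.0027). The median gene had a log2 range of 0.19 between DKO passages and 0.18 between WT passages.

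*Cry1* ran opposite to *Nr1d1* at those passages. It was at −0.61 at passage 9 of DKO (−0.78 to −0.51; test across passages, adjusted p = 9.8e-06) and at −0.31 at passage 8 of WT (−0.43 to −0.23, adjusted p = 0.0021). *Per2* was low at the same passages, −0.27 at passage 9 of DKO (adjusted p = 0.0060) and −0.34 at passage 8 of WT, where its test did not pass (adjusted p = 0.061). *Cry2* was low at passage 9 of DKO, at −0.22 (test across passages, adjusted p = 0.046). In these passages *Nr1d1* stood high and the repressors *Cry1* and *Per2* low in all 3 treatments. *Nr1d2*, the other REV-ERB gene, was at 0.05 at passage 9 of DKO (−0.02 to 0.13) and at 0.07 at passage 8 of WT. *Arntl* was at 0.10 at passage 8 of WT (0.07 to 0.14) and at −0.09 at passage 11 of WT (−0.17 to −0.01). Its test across WT passages did not pass (adjusted p = 0.28).

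Passage 11 of DKO showed another pattern. *Arntl* was at 0.44 (0.32 to 0.53), *Nr1d2* at −0.22 (−0.25 to −0.19) and *Dbp* at −0.42 (−0.50 to −0.28), beside the low *Nr1d1*. The tests across all DKO passages gave adjusted p of 2.3e-05, 0.00062 and 0.0036 for *Arntl*, *Nr1d2* and *Dbp*. There *Nr1d1*, *Nr1d2* and *Dbp* were low and *Arntl* was high in each treatment. Of the Per and Cry genes at that passage, *Cry1* was higher in each treatment, at 0.25 (0.13 to 0.46), while *Per1*, *Per2* and *Cry2* had deviations of both signs. *Per1* and *Clock* did not pass in either genotype and had ranges of at most 1.18-fold. Without passage 11 of DKO 4 members passed in DKO, and without passage 8 of WT 0 passed in WT. The hour of harvest is not in the labels, and its part in these patterns was not tested.

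**Figure D4:**
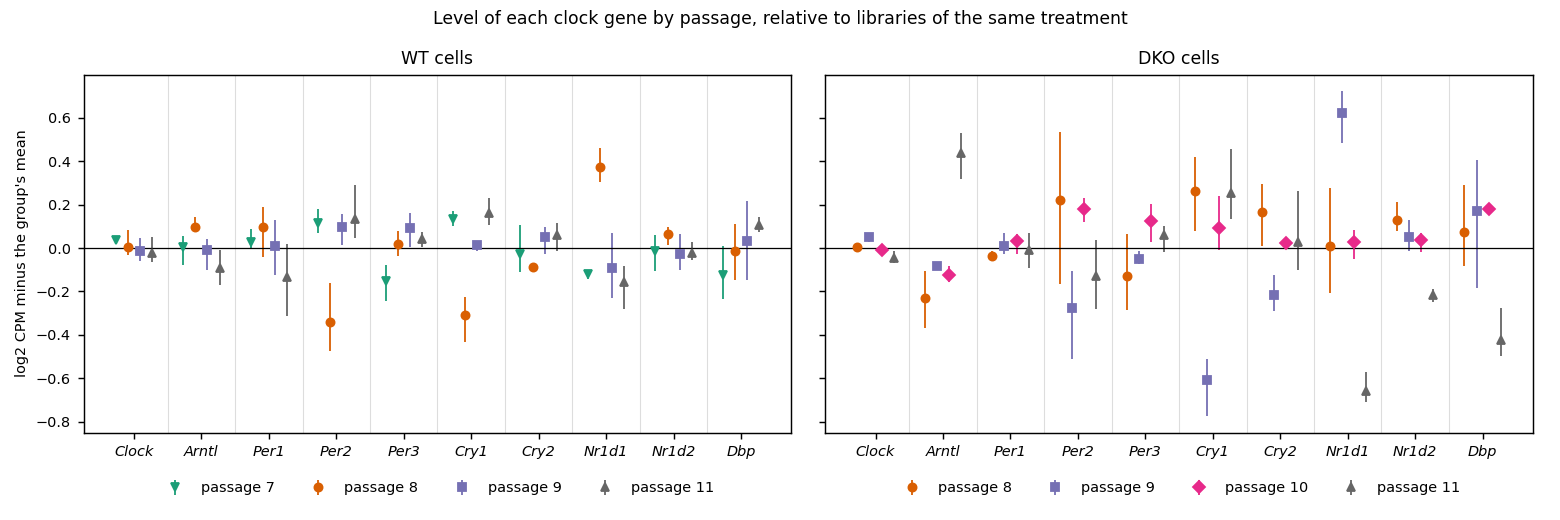
Deviation of each clock gene from its group's mean (log2 CPM) by passage, in WT on the left and DKO on the right; points are means of the 3 treatments' libraries and bars span their lowest to highest. Passage 9 of DKO and passage 8 of WT had high *Nr1d1* with low *Cry1*, and passage 11 of DKO had high *Arntl* with low *Nr1d1*, *Nr1d2* and *Dbp*.

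A list of 37 further clock genes was counted in the same fits, of which 36 were tested and *Npas2* had too few reads. With torin1, 11 were higher and 8 lower in WT (52.8% of those tested, against 47.1% of all genes), and 11 were higher and 7 lower in DKO. With MK-8722, 4 were higher and 0 lower in WT, and 4 higher and 2 lower in DKO. With torin1 these shares lay near those of all genes. With MK-8722 they were 11.1% in WT, against 16.1% of all genes, and 16.7% in DKO, against 8.69%. The DKO calls with MK-8722 include *Hlf*, at means of 0.206 CPM under DMSO and 0.0464 CPM under MK-8722. They also include *Fbxl21*, at 0 and 0.0545 CPM. That share therefore rests in part on genes with almost no reads in DKO.

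*Ciart*, which encodes a repressor of CLOCK and ARNTL, fell most with torin1. It went from 8.28 ± 0.716 to 1.37 ± 0.407 CPM in WT (log2 fold change −2.58 ± 0.27, adjusted p = 2.0e-08) and from 10.8 ± 2.48 to 0.736 ± 0.110 CPM in DKO (−3.86 ± 0.30, adjusted p = 1.9e-10). The ROR receptors, activators of *Arntl*, rose with torin1, all 3 of 3 in both genotypes. *Rora* went from 0.424 ± 0.0888 to 2.27 ± 0.352 CPM in WT (2.42 ± 0.20, adjusted p = 4.1e-10) and from 2.53 ± 0.328 to 6.66 ± 0.759 CPM in DKO. Of the D-box factors, *Nfil3* and *Tef* fell with torin1 in both genotypes. *Hlf* was counted as higher in both, from under 0.31 CPM on average. It passed the filter on low counts only through its torin1 libraries, so its call is no support for a rise.

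With MK-8722, *Bhlhe40*, which encodes an E-box repressor, rose from 16.4 ± 2.58 to 49.2 ± 9.64 CPM in WT (1.58 ± 0.15, adjusted p = 3.4e-08) and from 27.3 ± 2.91 to 55.9 ± 11.0 CPM in DKO (1.03 ± 0.15, adjusted p = 4.9e-05). Its paralog *Bhlhe41* rose in WT from 1.35 ± 0.105 to 3.04 ± 0.405 CPM (1.17 ± 0.17, adjusted p = 1.1e-05). Under DMSO, *Bhlhe41* was at 11.9 ± 1.59 CPM in DKO (3.12 ± 0.15 above WT, adjusted p = 5.6e-14), and its log2 response was lower in DKO than in WT by −1.54 ± 0.21 with torin1 (adjusted p = 1.9e-05) and by −1.05 ± 0.21 with MK-8722 (adjusted p = 0.0020). *Fbxl21*, a ligase for CRY proteins, was at 0.812 ± 0.146 CPM in WT and at 0 in the 4 DKO libraries under DMSO. The list of kinases, a phosphatase and enzymes that add or remove ubiquitin on clock proteins held 14 genes. Of these, 3 were higher and 3 lower with torin1 in WT, and 4 were higher and 3 lower in DKO. With MK-8722 edgeR called 0 of the 14 in WT, and 2 were higher and 0 lower in DKO. *Fbxl21* is among those counted as higher in DKO with each drug. Its means there were only 0.0821 CPM under torin1 and 0.0545 CPM under MK-8722, and it passed the filter on low counts only through WT. The 9 complex partners of the clock proteins gave 2 higher and 2 lower with torin1 in WT, 2 higher and 0 lower in DKO, and 0 called with MK-8722 in either genotype. Over all genes, 47.1% and 43.2% were called with torin1 in WT and DKO, and 16.1% and 8.69% with MK-8722.

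*Per1* and *Per2* are also targets of CREB, SRF and the glucocorticoid receptor, and lists of such targets were counted beside them. Of 10 CREB and SRF targets, 1 was higher and 2 lower with torin1 in WT, and 2 were higher and 4 lower in DKO, against 26.6% higher and 20.5% lower of all genes in WT and 23% and 20.2% in DKO. *Egr1* fell from 253 to 160 CPM in WT (−0.66 ± 0.16, adjusted p = 0.00085) and from 247 to 86.4 CPM in DKO (−1.52 ± 0.16, adjusted p = 2.8e-08). With MK-8722 2 were higher and 1 lower in WT, and *Fosb* was the 1 called in DKO. Of 7 glucocorticoid receptor targets tested, 2 were higher and 3 lower with torin1 in WT, and 3 higher and 2 lower in DKO, against the same shares of all genes. *Klf9* rose and *Tsc22d3* fell in both, so these targets did not move in a common direction.

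For some members few other genes had a similar pattern over the 6 groups. Likeness was the largest absolute difference over the 6 group means of log2 CPM, each set to the gene's own WT DMSO mean. *Per2*, *Nr1d1* and *Dbp* had 0 other genes within 0.25, and *Cry1* and *Arntl* had 1 each. *Cry2* had 10, *Per3* 16, *Clock* 21, *Nr1d2* 36 and *Per1* 123. A fixed limit holds fewer genes for a member with larger shifts, so these counts do not show how particular a pattern is. The nearest to *Arntl* were *Yars* (0.24) and *Gm10053* (0.28), and to *Cry1* *Slc25a33* (0.23) and *Sdf2l1* (0.28). The nearest to *Per2* were *Snapc1l* (0.28) and *Gm2574* (0.32), to *Nr1d1* *Slfn5* (0.30) and *Syde2* (0.36), and to *Dbp* *Srgap3* (0.30) and *Carmn* (0.31). No other clock gene was among them.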

How the data were processed

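RNA-seq libraries of 24 cultures were processed by the authors with nf-core/rnaseq, in which reads were aligned to GRCm38 (Ensembl release 102) by STAR with unique molecular identifiers considered, and quantified by Salmon. The deposited gene and transcript tables hold estimated counts and TPM per library, and the deposited effective transcript lengths (another unit, in bases) were used for an offset. Versions of the aligner and quantifier are not given in the sources used here. The members' gene counts equalled the sums over their transcripts in all 240 values. Positions are from GENCODE vM21 and promoters from RefSeq, both on GRCm38.

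Counts were rounded and fitted with edgeR 4.0.16 (R 4.3.3; quasi-likelihood, TMM factors of 0.950 to 1.08, minimum count 10, 15401 of 55487 genes) over all 6 groups, with 18 residual degrees of freedom. Adjusted p are Benjamini-Hochberg values over those genes, and a gene was called when this was under 0.05 and it changed at least 1.2-fold. Adding passage within genotype as a block left 12 degrees of freedom. Passage came from the labels, and libraries of the same passage and genotype had correlated deviations in 17 of 24 pairs (over 0.1). CPM are counts over TMM-scaled library totals. Library totals of 24668870 to 33332507 limit the precision of low genes. On simulated data for torin1 against DMSO in WT (15022 genes tested), 86 of 96 genes changed by 1 on the log2 scale and 96 of 97 changed by 2 were called. So were 8 unchanged genes. The simulated counts held no difference between passages and no spread of single genes around the trend. These shares therefore do not carry over to members that differ between passages. Alternatives were DESeq2 1.42.0, other scalings, filters and offsets, single libraries left out, and, chosen after seeing the data, single passages left out.

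The clock genes and the other gene lists were chosen with earlier results of these data known. Named beyond the members are the called list genes with the largest changes (at most 4 a comparison), the targeted genes and the 2 genes of most similar pattern, and other list genes named here were chosen after their values were seen. The labels do not say that libraries are separate cultures beyond passage, so p-values measure the spread between these libraries, which may be partly technical.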

Additional observations from a re-analysis of the deposited data

Results flagged for a closer look

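In 7 of 60 groups of 4 libraries, 1 library lay far from the other 3, where chance gives about 1 in 20. All 7 were of passage 8 in WT or passage 11. At passage 8 of WT, *Nr1d1* was at 20.9 CPM in WT DMSO replicate 3 (others 12.9 to 14.1) and at 16.04 CPM in WT torin1 replicate 4 (others 11.9 to 12.2). At passage 11, *Arntl* was at 22.96 CPM in DKO DMSO replicate 1 (others 16.7 to 17.4), at 16.004 CPM in DKO MK-8722 replicate 2 (others 10.0 to 11.0) and at 17.6 CPM in WT DMSO replicate 2 (others 20.4 to 20.8). At the same passage, *Nr1d2* was at 54.3 CPM in DKO DMSO replicate 1 (others 63.8 to 65.6), and *Per1* was at 25.7 CPM in DKO torin1 replicate 2 (others 24.003 to 24.2).

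Differences in response between genotypes, given as log2 response in DKO minus WT, were tested with edgeR's quasi-likelihood test. Without a block, *Clock* for torin1 passed on adjusted p alone, at −0.26 (adjusted p = 0.0027), under the fold threshold. With passage as a block, *Clock* for MK-8722 did too, at −0.17 (adjusted p = 0.022), and 8 values passed both the adjusted p and the fold. For torin1 they were *Per2* at −0.69 (adjusted p = 0.0056), *Cry1* at −0.56 (adjusted p = 0.0014), *Nr1d1* at 0.64 (adjusted p = 0.0012) and *Dbp* at −0.55 (adjusted p = 0.025). For MK-8722 they were *Per2* at 0.51 (adjusted p = 0.026), *Per3* at 0.38 (adjusted p = 0.018), *Cry1* at −0.49 (adjusted p = 0.0022) and *Cry2* at 0.44 (adjusted p = 0.0081).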

How the results depend on the processing

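Among the recomputed values of single members, 4494 kept their direction and their side of the threshold, 62 newly passed it, 23 no longer passed, and 41 changed sign where neither value was called. No called value changed sign. The number of members whose torin1 response differed between genotypes, 0 of 10, became 1 with library size alone, with 10 counts in every library, with adjusted p alone, without passage 9 of WT and without passage 11 of DKO, 2 with the groups compared alone, and 4 with passage as a block. For MK-8722 it went from 0 to 1 with DESeq2 and 4 with the passage block. Of the passage tests, the 2 members in WT became 4 with no filter, 4 without passage 9 of WT, 4 without passage 8 of DKO and 0 without passage 8 of WT, and the 7 in DKO became 4 without passage 11 of DKO. The 5 members called with MK-8722 in DKO became 3 without passage 10 of DKO. Leaving out 1 passage at a time gave 3 to 6 members with MK-8722 in WT and 6 to 8 for torin1 against MK-8722 in WT. Leaving out 1 library at a time gave 7 to 8 (torin1) and 4 to 4 (MK-8722) members against DMSO in WT, 7 to 7 and 3 to 5 in DKO, and 7 to 8 for torin1 against MK-8722 in each genotype. It gave 6 to 6, 5 to 6 and 6 to 7 for DKO against WT under DMSO, torin1 and MK-8722, 0 to 1 for each response, and 2 to 4 and 6 to 8 for the passages of WT and DKO. The replicate numbers of the titles did not pair the libraries, with deviations correlated over 0.1 in 13 of 60 pairs, and a replicate block changed no call in any of the 11 comparisons, whose counts stayed at 7, 4, 7, 5, 8, 7, 6, 6, 6, 0 and 0.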
